A study of Populus trichocarpa with 6 samples.

Results

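The dense peak arrays of this study are 3 stretches of the black cottonwood (Populus trichocarpa) genome in which FLAG ChIP-seq peaks lie close together. A peak was a member where its summit fell on chromosome 13 between 14.75 and 14.89 Mb, on chromosome 2 between 18.34 and 18.40 Mb, or on chromosome 15 between 6.32 and 6.34 Mb. By this rule 299 of 26550 peaks were members, with 102 of 6536 in IP replicate 1, 107 of 10759 in IP replicate 2 and 90 of 9255 in IP replicate 3. Chromosome 13 held 155 of them (50, 61 and 44 in replicates 1, 2 and 3), chromosome 2 held 108 (39, 34 and 35) and chromosome 15 held 36 (13, 12 and 11).

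Chromatin immunoprecipitation with Anti-FLAG (Sigma, F1804) and sequencing was applied to cambium, the dividing layer between wood and bark, of plants with the genotype PtrVCS2-3XFLAG overexpression. The samples were 3 IP DNA and 3 input DNA replicates, which series notes call biological replicates, and all 6 came from overexpressing plants. The input received no antibody, and no wild-type or untagged plants are among the samples, so FLAG pulldown in the absence of the fusion protein was not measured here. The labels give neither the age nor the number of plants, nor whether tissue was pooled.

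In ChIP-seq a peak is called where more DNA fragments from the immunoprecipitation pile up than the input predicts. Input itself is not flat. DNA present in more copies in the plant than in the assembled genome, such as tandem repeats or chloroplast and mitochondrial DNA copied into the nucleus, collects reads from all copies and stands high in input and immunoprecipitation alike. An array of equal tandem units would be expected to place summits and edges at multiples of 1 unit length, with like widths and heights from unit to unit. A nuclear copy of organelle DNA would be expected to have high input over its whole length and no fixed step. Segments copied from the same source would be expected to show the same order of peak edges, in the same or the opposite direction.

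The deposited lists give for each peak a fold over pooled input, a −log10 p and a −log10 q, which are the authors' own values. From these values the pile-up heights behind each peak were recovered, as the whole-number IP height and the expected height from the input that together give the fold, with 1 added to each, and the −log10 p. The numbers of sequenced reads are not given, so the depth behind each height is unknown. A peak is called high-input here where its expected height was at least 4 times the lowest of its list. The windows were selected on the positions and the expected heights of these same peaks in all 3 lists, so member counts, folds and heights are given as descriptions with no test. A set of 3 lists could in any case not fall below an exact two-sided sign-flip p of 0.25. The lists also share 1 genome and 1 pooled input, so recurrence between them is not independent. The array peaks are set beside 1367 high-input peaks elsewhere and the remaining 24884 peaks.

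Peaks were dense over each array, and density differed between them. On chromosome 15 there were 1.37, 1.24 and 1.14 peaks per kb between the first and the last member in replicates 1, 2 and 3, on chromosome 2 there were 0.957, 0.833 and 0.859, and on chromosome 13 there were 0.398, 0.486 and 0.380. Outside the chromosome 13 array the same lists averaged 16.4, 27.1 and 23.4 peaks per Mb. The arrays thus exceeded their list's average in every replicate, by 83.0, 45.6 and 48.8 times on chromosome 15, by 58.1, 30.6 and 36.7 times on chromosome 2 and by 24.2, 17.9 and 16.3 times on chromosome 13. Peaks covered 61.0 ± 5.4% of the span on chromosome 15, 46.9 ± 2.6% on chromosome 2 and 14.5 ± 0.50% on chromosome 13 (SD, n = 3 lists). The spans on chromosomes 13 and 2 include stretches without peaks, so these differences partly reflect such breaks. One stretch of 7.86 kb on chromosome 13 held 11, 11 and 10 peaks, and another of 25.7 kb held 10, 18 and 10. The chromosome 15 array held 13, 12 and 11 in 9.67 kb.

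The windows ended in stretches without peaks, but high-input peaks were also found beyond them. On chromosome 15 the nearest peaks before the window had summits at 6289728, 6289719 and 6289725, about 30.3 kb away. Their expected heights were 11.4 times the lowest of each list, the same as the first members inside. After that window the nearest, at 6409232 and 6409250, stood at 10.1 and 11.1 times in replicates 1 and 2. In replicate 3 the nearest, at 7429117, stood at 1.86 times. After the chromosome 2 window the nearest stood at 1.68 to 2.13 times. The nearest peak before the chromosome 2 window, at 18275876 in replicate 1 and 18275879 in replicate 2, stood at 6.27 and 6.72 times the lowest, and in replicate 3 the nearest, at 18011616, stood at 1.72 times. Around chromosome 13 the nearest outside peaks, 69.6 to 85.2 kb away, stood at 1.97 to 3.42 times, and the first and last members inside stood at 3.90 to 7.66 times.

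**Figure D1:**
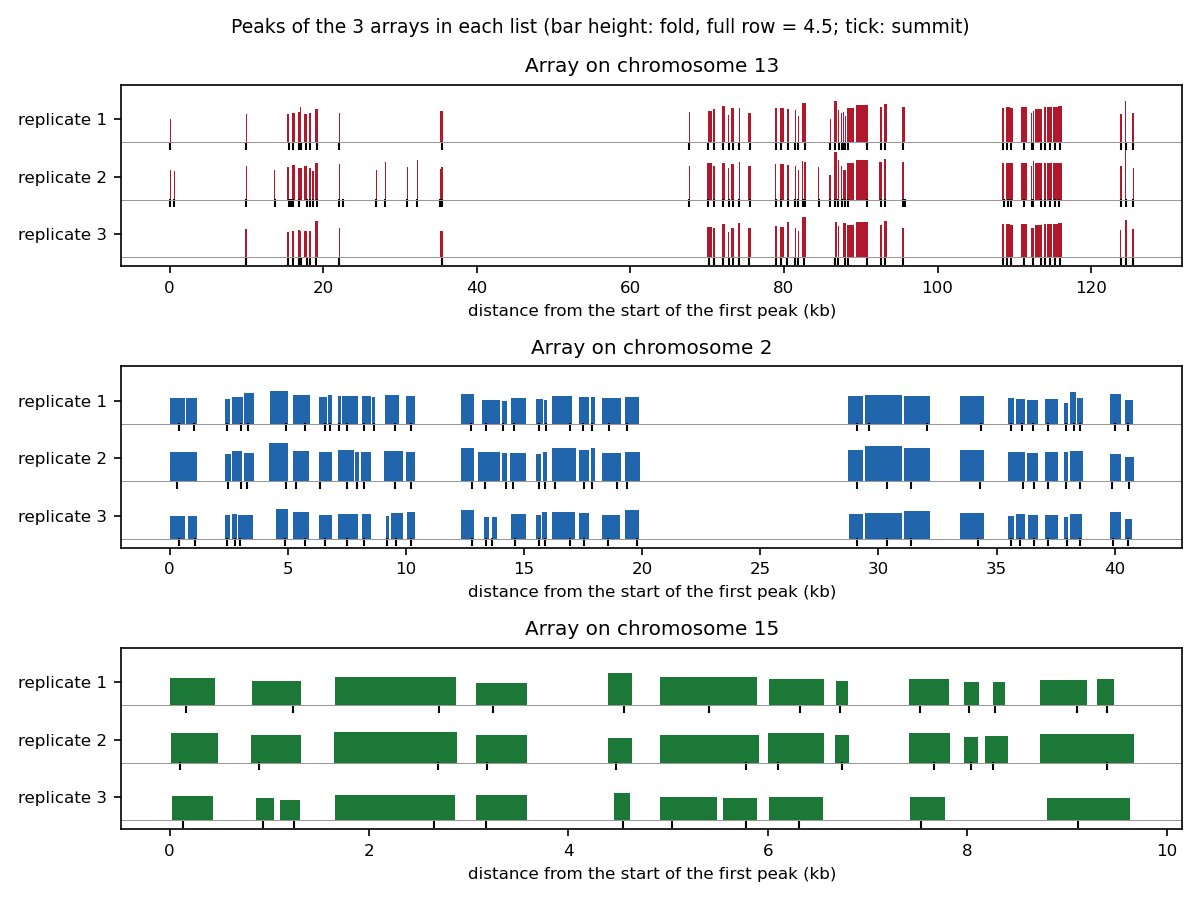
Peaks of the 3 arrays in IP replicates 1, 2 and 3, plotted by distance in kb from the first peak of each array. Each bar spans a peak with its height showing the fold over pooled input, and ticks mark summits. The chromosome 13 array falls into separate blocks, the chromosome 2 array breaks once, and the chromosome 15 array is continuous.

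The chromosome 13 array was made of blocks with empty sequence between them. Dividing it wherever neighbouring summits lay over 5 kb apart, a choice made after the positions were seen, gave 5 blocks. They ran from 14756661 to 14757332, from 14766527 to 14792274, from 14824263 to 14852464, from 14865039 to 14872901 and from 14880407 to 14882221. The longest distance between neighbouring summits, between the second and the third block, was 32174 bp in replicate 1, 32191 bp in replicate 2 and 34704 bp in replicate 3. The first block had 1 peak in replicate 1, 2 peaks in replicate 2 and none in replicate 3.

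The blocks of chromosome 13 differed in height more than the lists did. In the fourth block, 7.86 kb long with 11, 11 and 10 peaks, the median expected height was 99.3 ± 0.67% of the highest in its list, and the median IP height was 99.1 ± 0.41% of the highest in its list (SD, n = 3 lists). In the third block, 28.2 kb long with 25, 27 and 21 peaks, the expected height was 67.3 ± 0.65% and the IP height 65.3 ± 2.2%. The second block, with 10, 18 and 10 peaks, had 53.5 ± 8.0% and 45.2 ± 4.9%, and the fifth, with 3 peaks in each list, had 41.5 ± 4.8% and 35.3 ± 4.4%. The median fold was 2.62 ± 0.16 in the third block, 2.37 ± 0.23 in the fifth and 2.31 ± 0.27 in the second. In the fourth it was 2.74 ± 0.14, a ratio of heights at or near the highest of their lists. Both heights ended at a shared value in each list. The highest IP height, 226, 194 and 252, was 2 times the shortest peak width of 113, 97 and 126 bp, and 6, 8 and 6 peaks were tied there. The highest expected height was 11.4 times the lowest in every list, with 16, 28 and 12 peaks tied. Heights and folds there are therefore given as values at a limit and not ranked against those of other blocks.

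Of the chromosome 13 sites with a summit in all 3 lists, the one from 14881107 to 14881290 had the highest mean fold. Replicates 1, 2 and 3 gave folds of 3.20, 3.93 and 2.90 there, and 3.34 ± 0.53 on average (SD, n = 3), with summits at 14881193, 14881195 and 14881192. Its input was moderate for the array, at 55.8 ± 1.4% of the highest expected height. The site from 14843167 to 14843597 followed with folds of 3.18, 3.77 and 2.80. The site from 14839017 to 14839482 had 3.06, 2.93 and 3.17, and the site from 14849669 to 14850028 had 2.99, 3.21 and 2.87. The order among these 4 lies within their spread over the lists, and replicate 3 had the lowest fold at 3 of the 4.

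The site from 14849669 to 14850028 also reached the highest IP height of each list, 226 in replicate 1, 194 in replicate 2 and 252 in replicate 3. Its expected height was 90.9 ± 0.69% of the highest. The same IP heights were reached at the widest chromosome 13 site, from 14845994 to 14847623, which was 1618, 1627 and 1616 bp wide. Its summits, at 14847445, 14847445 and 14847439, lay close to its right end in all lists, and its folds were 2.93, 3.13 and 2.77. The next widest, from 14844869 to 14845770, was 890, 901 and 873 bp wide with folds of 2.65, 2.91 and 2.55.

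A pair of sites in the fourth block stood at the highest IP height and the highest expected height at once. They ran from 14870546 to 14870795 and from 14871663 to 14872304, and both had folds of 2.74, 2.90 and 2.61. These are exactly the folds that the 2 highest heights of each list give. Their widths differed, at 245, 239 and 248 bp and at 630, 631 and 642 bp. The first chromosome 13 site present in all lists, from 14766527 to 14766720, had its summit at 14766626 in each of them, with folds of 2.21, 2.62 and 2.22. The last, from 14882025 to 14882221, had folds of 2.25, 2.49 and 2.23, and both lay near the low end of the array's input, at 38.5 ± 4.6% and 41.5 ± 4.8% of the highest.

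The chromosome 2 array had 2 blocks, from 18348884 to 18368809 and from 18377592 to 18389694. The break between their summits was 9728, 9747 and 9332 bp in replicates 1, 2 and 3. The blocks resembled each other. The median fold was 2.11 ± 0.20 in the first and 2.08 ± 0.19 in the second, and the median expected height was 93.1 ± 1.1% and 94.7 ± 2.5% of the highest (SD, n = 3 lists). All 108 chromosome 2 members were high-input peaks.

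The highest mean fold on chromosome 2 was at the site from 18353105 to 18353890, with folds of 2.57, 2.96 and 2.35 that averaged 2.63 ± 0.31 (SD, n = 3). Next came the site from 18361197 to 18361752 with 2.31, 2.57 and 2.27, then that from 18357977 to 18358765 with 2.26, 2.38 and 2.06, and that from 18366207 to 18366629 with 2.12, 2.46 and 1.99. Replicate 2 had the highest and replicate 3 the lowest fold at each of them.

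The 2 chromosome 2 sites with the highest expected height, from 18382335 to 18383339 and from 18385916 to 18386492, stood at 99.6 ± 0.77% and 99.9 ± 0.23% of the highest. Their IP heights were lower relative to the list, at 79.0 ± 3.9% and 73.2 ± 5.4%. The site from 18382335 to 18383339 was 1002, 999 and 981 bp wide, and its summits lay 130 bp apart at most. The first site, from 18348884 to 18350049, was 631 and 634 bp wide in replicates 1 and 3, and in replicate 2 it was 1157 bp wide because 1 peak there covered what the other lists split. The last, from 18389320 to 18389694, had folds of 1.83, 1.88 and 1.59, and its mean of 1.77 ± 0.16 was the lowest of the named sites (SD, n = 3). The widest chromosome 2 region, from 18378329 to 18379899 and chosen after its values were seen, was 1568, 1554 and 1558 bp wide with edges within 3 bp at the start and 17 bp at the end. Its summits were at 18378505, 18379254 and 18379257, so that replicate 1 had its highest point 752 bp away from that of replicate 3.

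The chromosome 15 array was 1 block from 6322437 to 6332106, with 9.47, 9.66 and 9.62 kb between its first start and last end in replicates 1, 2 and 3. Only 4 sites had a summit of all 3 lists there. The site from 6326831 to 6327070 had folds of 2.47, 1.95 and 2.16, the site from 6324090 to 6325314 had 2.16, 2.40 and 2.01, the site from 6322437 to 6322919 had 2.12, 2.34 and 1.94, and the site from 6325507 to 6326017 had 1.74, 2.17 and 2.00. Their means, 1.97 ± 0.21 to 2.19 ± 0.26 (SD, n = 3), did not separate beyond the spread over the lists.

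The chromosome 15 sites from 6322437 to 6322919 and from 6324090 to 6325314 stood at 99.8 ± 0.30% and 99.5 ± 0.060% of the highest expected height. The second of them was the widest, at 1217, 1225 and 1196 bp. The site from 6325507 to 6326017 was 508, 509 and 507 bp wide. At these 3 sites widths varied less over the lists, relative to their size, than folds did. The remaining site with all lists, from 6326831 to 6327070, went the other way. Its widths were 240, 234 and 161 bp, 212 ± 44 bp on average, against a fold of 2.19 ± 0.26 (SD, n = 3).

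Widths were larger on chromosomes 2 and 15 than in the rest of each list. Median widths were 442, 557.5 and 508 bp on chromosome 2, 454, 485.5 and 419 bp on chromosome 15 and 280.5, 227 and 331 bp on chromosome 13, against 196.5, 174 and 221.5 bp in other high-input peaks and 213, 183 and 256 bp in the remaining peaks. Every list had the chromosome 2 and 15 medians above both comparison sets, and the chromosome 13 median was also above them in each list. Single widths reached 97 to 1627 bp on chromosome 13, 114 to 1568 bp on chromosome 2 and 123 to 1225 bp on chromosome 15.

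Median folds in the arrays lay below those of the remaining peaks, a comparison limited by the highest heights of each list. The highest IP height over the highest expected height gives a fold of only 2.74, 2.90 and 2.61 in replicates 1, 2 and 3. At least 90% of the highest expected height was reached by 139 of 299 array peaks, so their folds were bounded in advance. The median fold was 2.58, 2.80 and 2.46 on chromosome 13, 2.10, 2.30 and 1.92 on chromosome 2 and 2.05, 2.18 and 1.82 on chromosome 15, against 1.96, 2.21 and 1.85 in other high-input peaks and 3.05, 3.21 and 2.97 in the remaining peaks. Chromosomes 13 and 2 lay above other high-input peaks in every list, and chromosome 15 lay above them in replicate 1 and below them in replicates 2 and 3. The median −log10 q was 13.7, 15.4 and 12.3 over all array peaks, 8.28, 10.4 and 8.04 in other high-input peaks and 7.56, 7.22 and 8.37 in the remaining peaks. A lower fold passes the same p where the heights are higher, and the median IP height was 153.5, 142 and 170.5 in the arrays against 44, 38 and 49 in the remaining peaks.

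**Figure D2:**
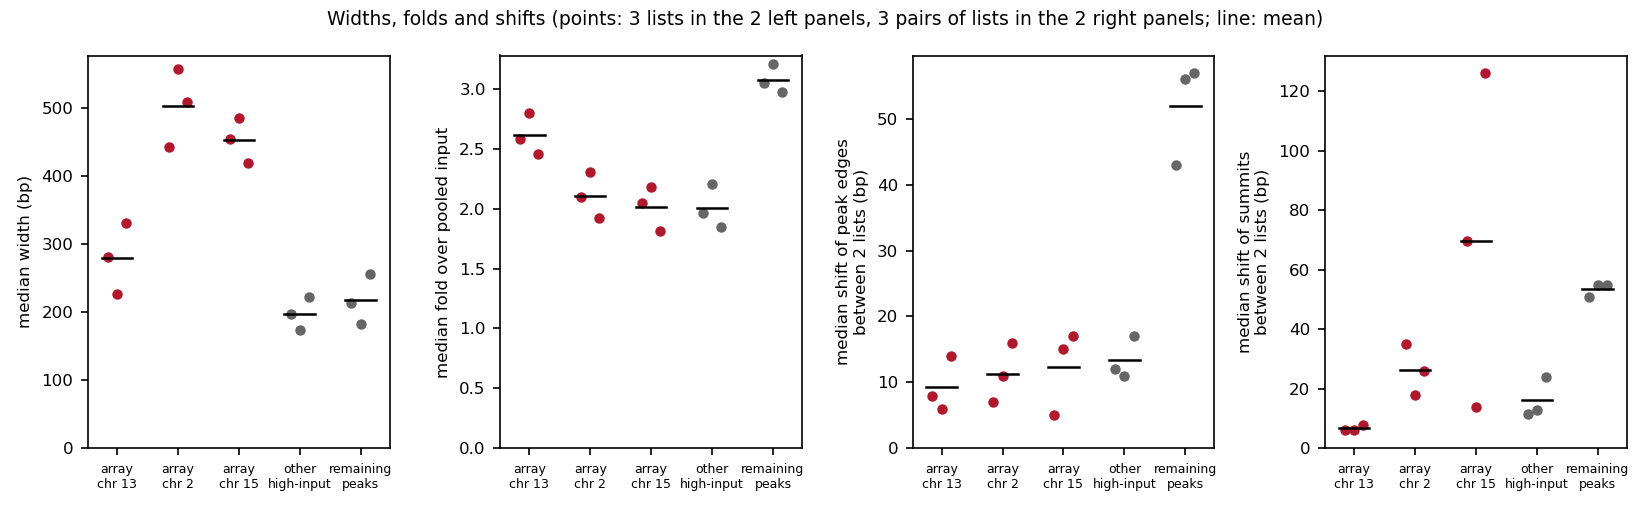
Median peak width in bp and median fold over pooled input, with 1 point per list, and the median shift of peak edges and of summits in bp between paired peaks, with 1 point per pair of lists, for the 3 arrays, other high-input peaks and the remaining peaks. Lines mark means, and edges shifted by a median of 5 to 17 bp in the arrays and by 43 to 57 bp in the remaining peaks.

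Summits of array peaks returned near the same place more often on chromosomes 13 and 2 than on chromosome 15. A summit within 100 bp in both other lists was found for 200 of 299 array peaks, 64.7%, 62.6% and 74.4% in replicates 1, 2 and 3, where the share over all 26550 peaks was 28.6%. The share was 82.0%, 67.2% and 93.2% on chromosome 13, 53.8%, 64.7% and 62.9% on chromosome 2 and 30.8%, 33.3% and 36.4% on chromosome 15, against 67.1%, 48.9% and 86.8% in other high-input peaks and 36.1%, 21.4% and 24.8% in the remaining peaks. Recurrence of summits was thus above that of other high-input peaks in every list on chromosome 13, below it in replicates 1 and 3 on chromosome 2, and below it in every list on chromosome 15, where 12 of 36 summits recurred. The chromosome 15 share lay near the share over all peaks. It was below the remaining peaks in replicate 1 and above them in replicates 2 and 3. Of each array's span, 6.02% to 7.63% on chromosome 13, 10.5% to 12.6% on chromosome 2 and 11.6% to 14.7% on chromosome 15 lay within 100 bp of summits of both other lists.

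Overlap was more frequent than summit recurrence. A peak of both other lists overlapped 269 of 299 array peaks, where the share over all peaks was 51.6%. Replicate 3, the list with the fewest array peaks, had all 90 overlapped, replicate 1 had 92 of 102 and replicate 2 had 87 of 107. In other high-input peaks the share was 71.9%, 52.6% and 92.8% in replicates 1, 2 and 3. In the remaining peaks it was 70.8%, 43.1% and 44.4%. Wider coverage makes overlap likelier, and peaks covered 46.9% of the chromosome 2 span and 61.0% of the chromosome 15 span. The overlap that coverage alone would give was not measured. A start and an end within 20 bp in both other lists were found for 110 of 299 array peaks, 40.2%, 31.8% and 38.9% in replicates 1, 2 and 3, where the share over all peaks was 1.81%. The same share was 17.8%, 13.1% and 21.6% in other high-input peaks and 0.867%, 0.358% and 0.623% in the remaining peaks. Such edges were found for 56.0%, 31.1% and 52.3% of chromosome 13 peaks, 23.1%, 32.4% and 25.7% of chromosome 2 peaks and 30.8%, 33.3% and 27.3% of chromosome 15 peaks. Chromosome 13 had the highest share in replicates 1 and 3 and the lowest in replicate 2.

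Overlapping peaks of 2 lists were then paired and their shifts measured. The median edge shift between 2 lists was 6 to 14 bp on chromosome 13, 7 to 16 bp on chromosome 2 and 5 to 17 bp on chromosome 15, against 11 to 17 bp in other high-input peaks and 43 to 57 bp in the remaining peaks. Summits shifted by 6 to 8 bp on chromosome 13, 18 to 35 bp on chromosome 2 and 14 to 126 bp on chromosome 15, against 11.5 to 24 bp in other high-input peaks and 51 to 55 bp in the remaining peaks. On chromosome 15 summits therefore moved farther than in the remaining peaks in 2 of the 3 pairs of lists, while the edges moved less in every pair.

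Joining summits at most 100 bp apart gave 134 sites, 68 with all 3 lists, 29 with 2 lists and 37 with 1 list. On chromosome 13, 41 of 65 sites had all lists and the median distance between their outermost summits was 13 bp. On chromosome 2, 23 of 51 sites had all lists with a median of 26 bp, and on chromosome 15, 4 of 18 with a median of 59.5 bp. Sites of 1 list came mostly from replicate 2, with 22 of 37, against 9 in replicate 1 and 6 in replicate 3. On chromosome 13 replicate 2 accounted for 14 of the 16.

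One of these, from 14779179 to 14779277 and named after its values were seen, had the highest fold of all array peaks, 5.22, in replicate 2 alone. Its expected height was 1.41 times the lowest of the list, so it was among the 10 array peaks outside the high-input class. These 10 were all on chromosome 13, 2 in replicate 1 and 4 each in replicates 2 and 3. The 4 of replicate 2 lay between 14779179 and 14789013, inside the second block, and had no counterpart in the other lists.

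High input was shared by nearly all members, as the choice of the windows required. Of the 299, 289 were high-input peaks, where the share over all peaks was 6.24%. The median expected height was 10.1 ± 0.047 times the lowest of the list in the arrays, against 8.91 ± 0.27 times in other high-input peaks and 1.89 ± 0.013 times in the remaining peaks (SD, n = 3 lists). An expected height of at least 90% of the highest of the list was reached by 139 of 299 array peaks, 41 of 155 on chromosome 13, 73 of 108 on chromosome 2 and 25 of 36 on chromosome 15, where the share over all peaks was 1.69%.

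At this near-highest input the chromosome 13 peaks lay at or near the limit of IP height, so their values are limits and their distance from the other arrays is not measured exactly. The median IP height was 98.9%, 99.5% and 99.8% of the highest of the list on chromosome 13, 72.1%, 77.8% and 70.4% on chromosome 2 and 72.1%, 76.8% and 68.1% on chromosome 15, against 68.6%, 72.7% and 65.5% in other high-input peaks. The lowest of these chromosome 13 peaks, at 85.4%, 87.1% and 80.2%, lay below the highest of chromosome 2, at 86.3%, 92.8% and 83.7%, in every list. Mean folds at this input were 2.75 ± 0.14 on chromosome 13, 2.10 ± 0.20 on chromosome 2 and 2.03 ± 0.21 on chromosome 15, against 1.97 ± 0.20 in other high-input peaks (SD over the list medians, n = 3). Of the 6, 8 and 6 peaks tied at the highest IP height, 6, 7 and 6 were in the chromosome 13 array.

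**Figure D3:**
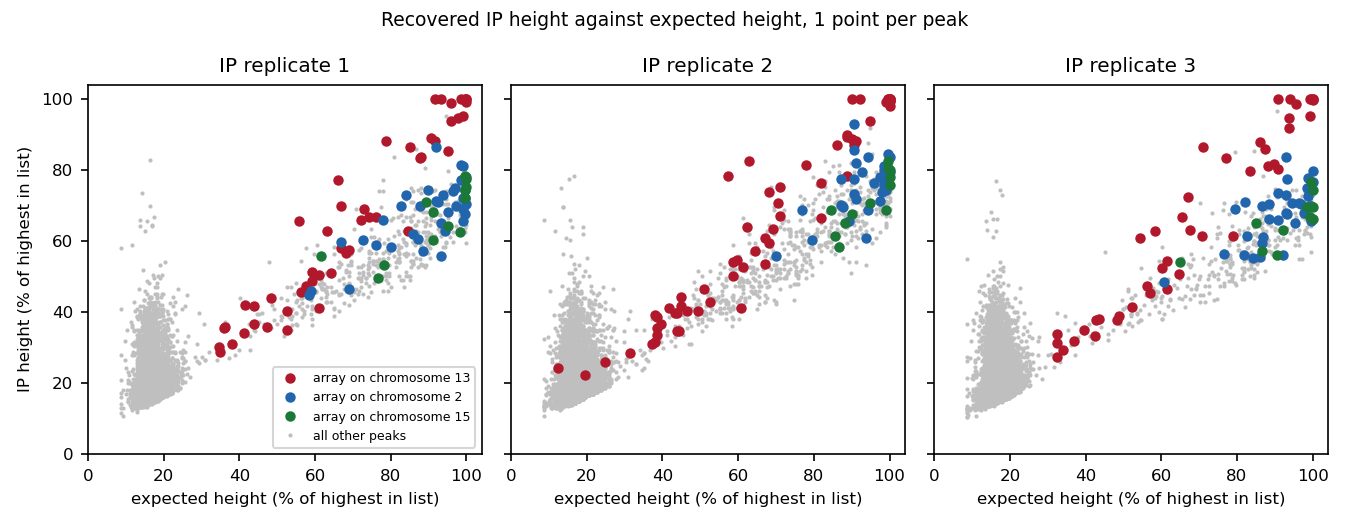
Recovered IP height against expected height of every peak in IP replicates 1, 2 and 3, each as a percentage of the highest in its list. The array peaks lie at the high-input end, and at near-highest input the chromosome 13 peaks lie at or near the limit of IP height that several peaks share, while the chromosome 2 and 15 medians are 68.1% to 77.8%.

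The distance from one summit to the next had a like median in the 3 arrays but was not regular. It was 757, 742.5 and 778 bp on chromosome 13, 670.5, 773 and 839.5 bp on chromosome 2 and 817, 795 and 774 bp on chromosome 15. The coefficient of variation of the distances, which is near 0 for equal steps, was 2.13 ± 0.063 on chromosome 13, 1.38 ± 0.079 on chromosome 2 and 0.534 ± 0.047 on chromosome 15 (SD, n = 3 lists). It includes the breaks between blocks on chromosomes 13 and 2 and was not measured within blocks, so it does not rank the arrays by evenness. In replicate 1 the lower and upper quartiles were 574 and 1859 bp on chromosome 13 and 463 and 973.5 bp on chromosome 2. On chromosome 15, which was 1 block, distances ran from 257 to 1466 bp in replicate 1, from 220 to 1794 bp in replicate 2 and from 308 to 1574 bp in replicate 3.

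The leading distance between summits differed from list to list. Distances of 150 to 10000 bp between any 2 summits of a list were counted within 25 bp. The leading distance was the one with the most pairs over the median of its surroundings. That median was taken as at least 1, and the shortest of tied distances was kept. How many distances tied was not counted. On chromosome 13 the leading distance was 2800, 7080 and 6040 bp in replicates 1, 2 and 3. On chromosome 2 it was 6210, 1360 and 3850 bp, and on chromosome 15 it was 830, 1280 and 510 bp. The leading distance rested on 4, 5 and 5 pairs of 1225, 1830 and 946 on chromosome 13, on 6 pairs in each list on chromosome 2 and on 3 in each on chromosome 15. The most pairs that any 1 distance reached in all lists were 4 on chromosome 13, 3 on chromosome 2 and 1 on chromosome 15, and 7, 13 and 67 different distances reached those numbers.

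**Figure D4:**
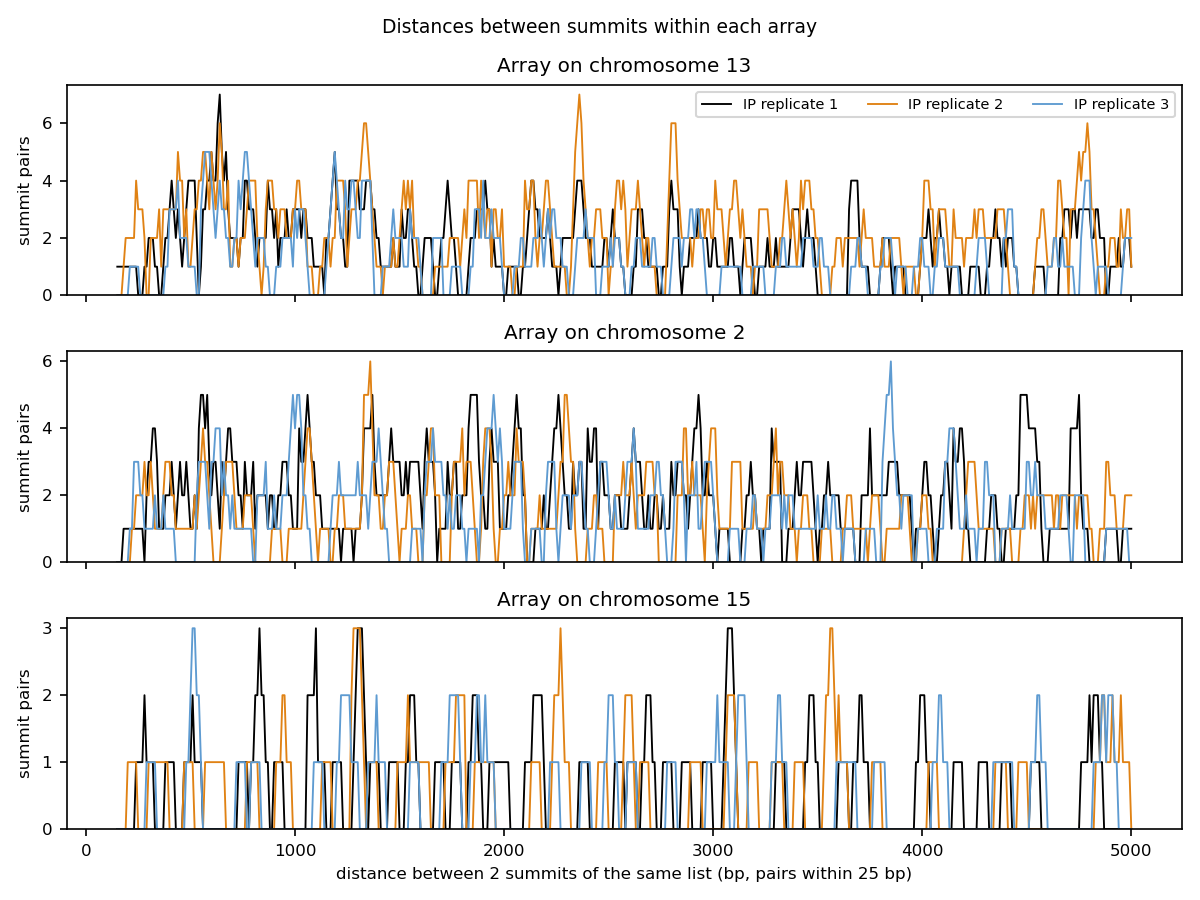
Number of summit pairs of the same list at each distance in bp, counted within 25 bp, in the 3 arrays for IP replicates 1, 2 and 3. The tallest values in 1 list are 7 pairs on chromosome 13, 6 on chromosome 2 and 3 on chromosome 15, and the most pairs that 1 distance reaches in all lists are 4, 3 and 1.

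Peak starts and ends were also matched within and between arrays, in the same and in the mirrored direction. This use of edges was chosen after the data were seen. An offset was called recurring where the offset with the most matched edges, counted in a range of 50 bp, lay within 50 bp in all 3 lists. With summits 0 of 12 such comparisons gave a recurring offset, and with edges 2 of 12 did.

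The first was a step of 669 to 719 bp within the chromosome 13 array. It matched 11, 11 and 10 edge pairs in replicates 1, 2 and 3, among 100, 122 and 88 edges. The next best step matched 10, 11 and 8. In replicate 2 the next best thus had as many, and no pair of peaks matched at both edges in any list. Starts shifted by this step in the second block, where in replicate 1 peaks began at 14771971, 14772648 and 14773364, and again at 14774201, 14774872 and 14775550. In replicate 2 the same peaks began at 14771955, 14772654 and 14773363, and at 14774201, 14774870 and 14775550. In replicate 3 peaks began at 14771973, 14772642 and 14773361, and at 14774195, 14774862 and 14775550. There the starts at 14774195 and 14774862 were not among the matches, and with starts alone the chromosome 13 step did not recur. The widths of the 6 peaks in replicate 1 were 273, 369, 280, 342, 163 and 386 bp. Starts thus lay at similar steps at these chosen peaks, while widths differed more than 2-fold.

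The second match was between the chromosome 15 array and part of the chromosome 2 array in mirrored order. It joined 10, 10 and 9 edge pairs, of 26, 24 and 22 edges on chromosome 15, where the next best offset joined 9, 6 and 7. In replicate 2, whose matches reached the farthest, they ran over 9.66 kb on both chromosomes, from 18355187 to 18364848 on chromosome 2 and from 6322452 to 6332106 on chromosome 15. With the order reversed, the left end of the chromosome 15 array thus lay opposite the right end of that stretch. In the same direction the 2 arrays joined 9, 6 and 7 edge pairs. Those offsets did not recur over all 3 lists but did without replicate 3. Chromosomes 13 and 2, where more edges were compared, joined 10, 9 and 8 in the same direction and 9, 10 and 8 mirrored. Neither gave a recurring offset.

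In the mirrored alignment of chromosomes 2 and 15 only 1, 2 and 2 pairs of peaks matched at both edges in replicates 1, 2 and 3. At least partly, 12 of 13, 11 of 12 and 9 of 11 chromosome 15 peaks fell on a chromosome 2 peak. How many would do so at other offsets was not measured. Chromosome 2 peaks covered 71.7%, 76.4% and 63.7% of the bases inside chromosome 15 peaks, against 28.3%, 27.2% and 31.1% of the bases between them, and 55.1%, 59.6% and 49.1% of the whole stretch. The alignment was itself chosen for matching edges, so this difference is a description. One counterpart was the chromosome 15 site from 6325507 to 6326017, 508, 509 and 507 bp wide, which lay opposite the chromosome 2 site from 18361197 to 18361752, 553, 556 and 535 bp wide. In replicate 3 they matched at both edges, and in replicates 1 and 2 at 1 edge. Another was the chromosome 2 site from 18357003 to 18357421, 409, 419 and 407 bp wide and named after its values were seen, which lay opposite the chromosome 15 region from 6329852 to 6330261, 404, 410 and 350 bp wide. It matched at both edges in replicates 1 and 2 and at 1 edge in replicate 3.

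**Figure D5:**
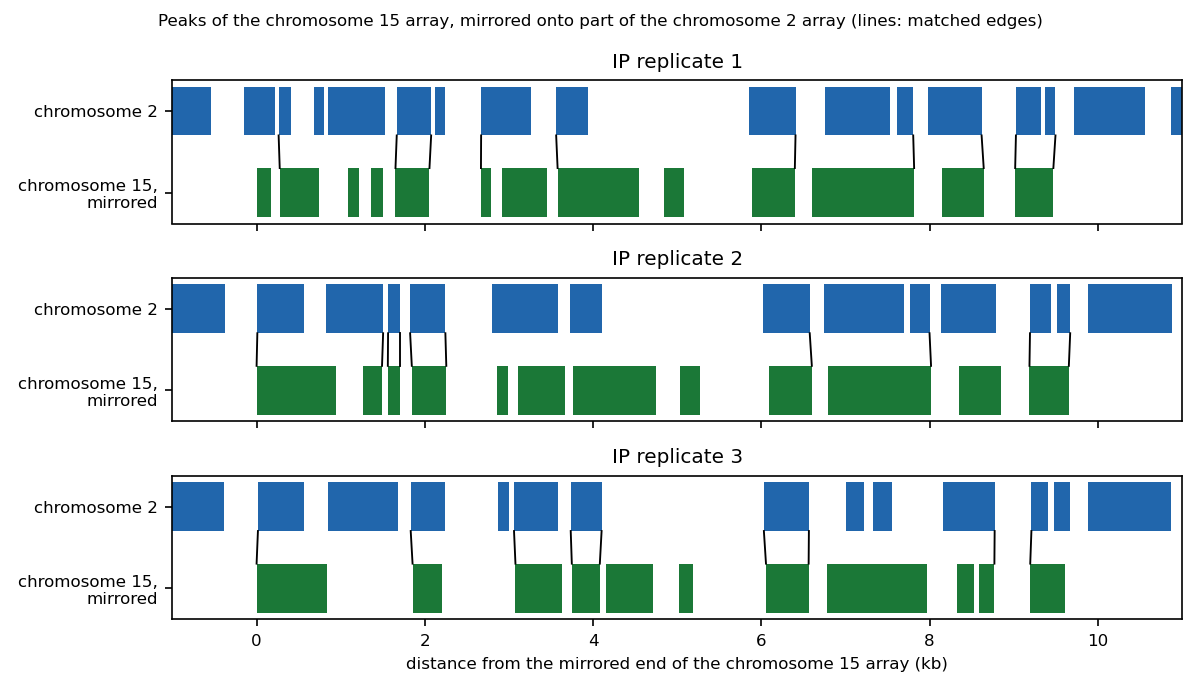
Peaks of the chromosome 15 array drawn in reversed order below the chromosome 2 peaks at the best mirrored offset in IP replicates 1, 2 and 3, by distance in kb. Lines join the 10, 10 and 9 matched edges, and most chromosome 15 peaks lie under a chromosome 2 peak.

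The lists showed no recurring leading distance between summits in any array. Only distances of 150 to 10000 bp were searched, so shorter steps could not be seen, and leading distances rested on 3 to 6 pairs. Widths ran from 97 to 1627 bp on chromosome 13, and whether called widths follow repeat units was not tested. The edge step of 669 to 719 bp on chromosome 13 was the only recurring offset among the 6 comparisons of edges within an array. All 3 arrays had high input, which the windows were selected on. At near-highest input the chromosome 2 and 15 arrays had like folds, 2.10 ± 0.20 and 2.03 ± 0.21, and like IP heights, 73.5 ± 3.9% and 72.3 ± 4.4%. Other high-input peaks lay near both, at 1.97 ± 0.20 and 68.9 ± 3.6%, so this likeness was not particular to the 2 arrays. The chromosome 2 and 15 arrays also had partly matching edges in opposite order. In replicate 1 the same order matched nearly as many, 9 against 10. Whether these stretches are tandem repeats, copies of organelle DNA or copies of each other was not tested, since no genome sequence was used here. Whether the recurrence of array peaks goes with PtrVCS2-3XFLAG or with the input was not tested.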

How the data were processed

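The members and the measures were chosen with earlier results of these data known. The submitters' processing notes name deepTools 3.5.1, MACS2 2.1.0, Bowtie2 2.3.5 and Trimmomatic 0.33. The genome build, the peak threshold and duplicate handling were not given in the sources used here. Per the peak names in the deposited lists, each IP replicate was called against pooled input. The authors' peak caller gave each peak a position, a fold (the ratio of IP to expected height at its summit), a −log10 p with its −log10 q, and a deposited score that equals 10 times the −log10 p without decimals. Column meanings were read from the usual narrowPeak order, as the lists carry no header. Positions are printed counted from 1.

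The IP height was recovered as the whole number that, with an expected height and an added count of 1, gave both the deposited fold and the deposited −log10 p as a Poisson upper tail. It did so within 1e-04 for 99 of 102, 107 of 107 and 88 of 90 array peaks. Sites joined summits at most 100 bp apart, and regions joined overlapping peaks. In each window the sites named, among those with all 3 lists, were the 4 with the highest mean fold, the 2 with the highest expected height, the 2 widest, and the first and last, which gave 10 sites on chromosome 13, 8 on chromosome 2 and 4 on chromosome 15. Python 3.11.15, pandas 2.3.3, NumPy 2.4.6, SciPy 1.17.1 and Matplotlib 3.10.9 were used, and the spacing and matching measures were checked on simulated data. Alternatives were a −log10 q of at least 10, other distances and overlaps, and leaving out each replicate.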

Additional observations from a re-analysis of the deposited data

How the results depend on the processing

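Of 62 summary alternatives, 47 stayed within 1 SD over the lists (for counts, within 1.5 times), and 0 of 88 alternatives moved the fold of any of the 22 named sites by 1 SD. The share of recurring summits, 67.3%, became 59.6% with peaks of −log10 q of at least 10, 54.8% within 50 bp, 90.5% by overlap of 1 bp, 75.3% by reciprocal overlap of 50%, and 73.6% to 82.6% when 1 replicate was left out, where fewer lists must share a summit. With −log10 q of at least 10 the 68 sites in all lists became 45, the median width of 361 bp became 431 bp and the expected height of 10.1 times the lowest became 10.4 times. The number of recurring edge offsets, 2, became 1 with −log10 q of at least 10 (the chromosome 13 step), 1 with starts alone (the chromosome 2 and 15 match), 0 with edges within 25 bp, 0 with summits, 2 with edges within 100 bp (the chromosome 2 and 15 match and a step of 1817 to 1855 bp on chromosome 2, without the chromosome 13 step), and 2 to 4 when 1 replicate was left out, with 4 without replicate 1. The 25 and 100 bp settings changed both the matching range and the agreement required between lists. At 50 bp the chromosome 2 and 15 offsets already spread over 33 bp, more than the 25 bp setting allows. The cause of the changes in these numbers was not tested. No leading summit distance recurred in any alternative. With 3 lists, dropping 1 always leaves the mean within 1 SD, so those rechecks say little about folds, widths, IP heights or expected heights. The 47 unchanged alternatives include them. They also include every leading-distance alternative, each with 0 recurring distances as in the main result. No paired analysis was possible because each list was called against the same pooled input, and single input lists were not analysed here. The depth of the libraries is unknown.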
